A study of Homo sapiens with 8 samples.

Results

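The 10 genes examined for PML::RARA binding place, copy, read or remove DNA methylation. They were DNMT1, DNMT3A, DNMT3B, UHRF1, MBD2, TET1, TET2, TET3, IDH1 and IDH2. A Cut&Run peak was taken if it carried the symbol of 1 of these genes, or if it carried no symbol and its centre lay within 50 kb of the centre of such a peak on the same chromosome. This gave 9 of the 15412 peaks, 4 with a symbol (labelled) and 5 without. DNMT1, TET3, IDH1 and IDH2 had 1 labelled peak each. DNMT3A, DNMT3B, TET1, TET2, UHRF1 and MBD2 had none.

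In Cut&Run, an antibody guides a nuclease to its target protein in nuclei, and the DNA fragments that the nuclease frees are sequenced. U937-PR9 is a myeloid cell line in which a zinc-inducible promoter drives a PML::RARA transgene, so that fusion protein levels are set by zinc and not by the promoter that drives PML::RARA in leukaemia. The labels give 8 libraries in 4 groups of 2 replicates, from zinc-treated (induced) or control (uninduced) cells, each with an anti-PML::RARA and an anti-RARA antibody. By the authors' methods, the cells were given 100 μM ZnSO4 or sterile water for 5 h. All values here come from 1 list, the anti-PML::RARA peaks of the induced cells that passed the authors' test of reproducibility over 2 replicates, and the other groups were not analysed here. Uninduced values for these peaks were therefore not set beside the induced ones, and the part of zinc itself was not tested. Replicates were not listed separately, so differences between peaks are given without an error or a test.

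DNA methyltransferases add a methyl group to cytosine, mostly where a G follows (a CG dinucleotide). DNMT3A and DNMT3B set new marks, whereas DNMT1 copies them to the new strand after replication with the help of UHRF1, which recognises DNA methylated on a single strand. MBD2 binds methylated CG and belongs to a repressor complex. The TET enzymes oxidise methylcytosine and so open the way to its removal. They need 2-oxoglutarate, which IDH1 and IDH2 make from isocitrate, while leukaemia mutants of IDH1 and IDH2 make 2-hydroxyglutarate, an inhibitor of TET enzymes. DNMT3A, TET2, IDH1 and IDH2 are recurrently mutated in acute myeloid leukaemia. PML::RARA, the driver of acute promyelocytic leukaemia, binds DNA through the retinoic acid receptor, whose recognition element is a pair of AGGTCA-like words, called receptor words here.

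The sequences below are the plus strand of hg19 around the point of largest signal (the apex) at 6 peaks, and show how unlike the DNA under the peaks of these genes was. Capitals mark any of the words that were searched on both strands, namely the receptor word AGGTCA with its variant forms AGTTCA or GGGTCA or GGTTCA, the ETS core GGAAGT, the GC box GGGCGG, the NFY box CCAAT, the AP-1 word TGANTCA, the E box CACGTG and the RUNX word TGTGGT. Windows were 300 bases long and centred on the apex, and annotated UTR bases were left out, which removed nearly the whole window at DNMT1 and IDH1. The TET3 pair sets the upstream peak with 3 receptor words beside the labelled peak with none. The IDH2 pair sets the labelled promoter peak beside the highest of the 9 peaks. DNMT3A and UHRF1 are shown because the highest peak within DNMT3A and the only one within UHRF1 carried no symbol.
TET3 upstream peak, chr2:74198177-74198476: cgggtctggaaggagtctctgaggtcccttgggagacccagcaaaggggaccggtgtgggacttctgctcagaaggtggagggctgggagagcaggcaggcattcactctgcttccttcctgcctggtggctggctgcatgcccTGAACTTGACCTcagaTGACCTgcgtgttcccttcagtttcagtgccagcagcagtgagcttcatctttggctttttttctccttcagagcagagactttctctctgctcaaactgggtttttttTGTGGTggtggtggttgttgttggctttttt
TET3 labelled peak, chr2:74212811-74213106: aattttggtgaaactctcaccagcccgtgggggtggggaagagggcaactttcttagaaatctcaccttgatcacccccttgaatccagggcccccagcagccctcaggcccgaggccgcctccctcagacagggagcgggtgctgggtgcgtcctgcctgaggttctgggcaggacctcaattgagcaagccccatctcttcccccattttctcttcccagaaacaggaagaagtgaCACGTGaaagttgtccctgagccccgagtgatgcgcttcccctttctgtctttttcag
IDH2 labelled peak, chr15:90644875-90645174: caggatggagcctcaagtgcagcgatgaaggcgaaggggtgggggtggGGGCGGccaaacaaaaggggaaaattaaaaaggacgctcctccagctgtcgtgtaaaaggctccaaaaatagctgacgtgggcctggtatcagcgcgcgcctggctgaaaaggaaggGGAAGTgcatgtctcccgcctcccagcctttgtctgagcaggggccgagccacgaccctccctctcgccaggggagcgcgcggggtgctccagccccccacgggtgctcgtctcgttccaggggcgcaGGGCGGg
ZNF710 intron peak near IDH2, chr15:90602804-90603103: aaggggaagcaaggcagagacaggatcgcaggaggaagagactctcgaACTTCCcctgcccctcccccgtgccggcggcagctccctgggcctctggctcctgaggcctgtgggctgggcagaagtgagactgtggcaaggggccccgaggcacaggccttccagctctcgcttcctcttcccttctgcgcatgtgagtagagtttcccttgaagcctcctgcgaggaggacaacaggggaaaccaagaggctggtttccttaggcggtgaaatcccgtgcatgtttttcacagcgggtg
DNMT3A intron 1 peak, chr2:25538949-25539248: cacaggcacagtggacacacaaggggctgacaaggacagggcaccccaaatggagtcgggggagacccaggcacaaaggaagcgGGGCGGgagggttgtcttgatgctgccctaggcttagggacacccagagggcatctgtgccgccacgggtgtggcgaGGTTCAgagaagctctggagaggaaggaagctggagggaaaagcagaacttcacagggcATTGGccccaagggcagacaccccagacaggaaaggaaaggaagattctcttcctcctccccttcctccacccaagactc
UHRF1 start-site peak, chr19:4909897-4910157: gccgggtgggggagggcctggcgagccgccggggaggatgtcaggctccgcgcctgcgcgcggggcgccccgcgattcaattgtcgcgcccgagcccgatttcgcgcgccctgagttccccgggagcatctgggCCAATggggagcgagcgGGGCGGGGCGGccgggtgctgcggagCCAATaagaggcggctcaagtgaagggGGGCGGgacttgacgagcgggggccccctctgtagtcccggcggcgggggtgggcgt

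All 4 labelled peaks were wider than the list median of 829.5 bp, though DNMT1 was narrower than the median labelled peak. Only those of TET3 and IDH2 were low. Height is the largest signal within a peak, in the authors' signal unit, and over the whole list it ran from 13 to 87 with a median of 25. The labelled peaks of the 10 genes had heights of 19 at TET3, 19 at IDH2, 26 at DNMT1 and 33 at IDH1, with a median of 22.5, against a median of 26 over all 7169 labelled peaks (quartiles 20 and 35). Their widths were 968 bp at DNMT1, 1364 bp at TET3, 1660 bp at IDH1 and 1888 bp at IDH2, with a median of 1512 bp, against 1108 bp over all labelled peaks. The low and the wide peaks were partly the same ones, since IDH2 had the widest of the 4 and shared the lowest height with TET3. In all, 4 of the 10 genes (40.0%) had a labelled peak, against 29.9% of 20149 protein-coding genes, and with 10 genes a difference of this size is 1 gene.

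Each of the 5 unlabelled peaks in the neighbourhood was higher than the labelled peak it lay near. How often this holds over the whole list is not given here. At TET3 the labelled height of 19 compared with 35 and 46, at IDH2 the labelled 19 compared with 28 and 58, and at IDH1 the labelled 33 compared with 39. Their median height was 39, against 23 over all 8243 unlabelled peaks, and their median width was 1089 bp against 634 bp. By total signal the order was not the same throughout. At TET3 the neighbours had 11471 and 12514, against 8658 in the labelled peak. At IDH2 they had 22726 and 9476 against 15965, and at IDH1 17692 against 25331. DNMT1 had no unlabelled peak within 50 kb. Having at least 1 such neighbour was common in the list, as 48.5% of all labelled peaks did. The rule's distance was met most narrowly by the TET3 peak at 46635 bp, and the nearest unlabelled peak beyond it lay 56224 bp from the IDH2 peak with a height of 30.

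**Figure D1:**
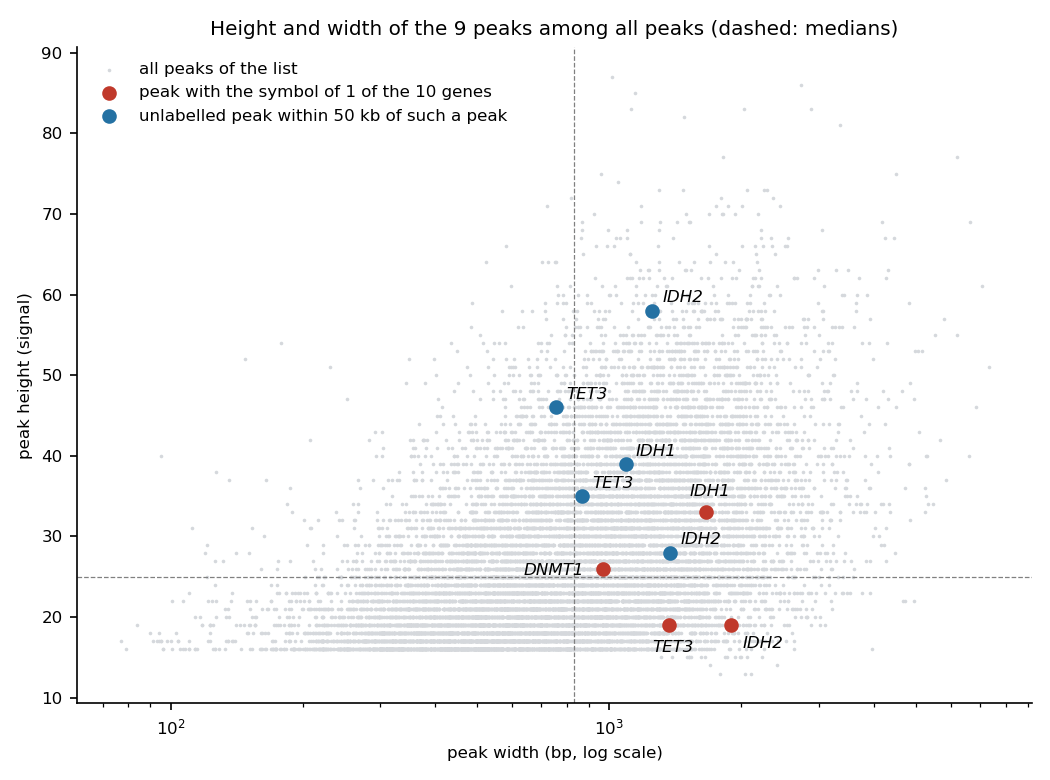
Height (signal, vertical) against width (bp, logarithmic, horizontal) of all 15412 peaks in grey, with the 4 labelled peaks in red and the 5 unlabelled peaks within 50 kb in blue, each named by the gene it belongs to or lies near. Dashed lines are the medians of the list, 25 for height and 829.5 bp for width. The red points lie right of the median width, and those of TET3 and IDH2 lie below the median height, whereas the blue points all lie above it.

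DNMT1, the maintenance methyltransferase, had the plainest promoter peak. It covered chr19:10305082-10306049 and was 26 high, rank 6677 of 15412, and 968 bp wide, rank 6270. Its apex lay 60 bp upstream of the start of the canonical transcript (10305629, minus strand) and within an annotated UTR of another transcript. The total signal of 8049 came to 8.32 per base, close to the median of 8.74 over all peaks. Around the apex, GC made up 71.0% of the bases and 34 CG dinucleotides were counted, and of the searched words only GGGCGG was found. DNMT1 also has a distal start at 10341962. A peak with the symbol of S1PR2, a receptor for sphingosine 1-phosphate, covered chr19:10341037-10342330 at a height of only 16, with the apex 86 bp upstream of this distal DNMT1 start and 41 bp upstream of the start of S1PR2.

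UHRF1, the partner that brings DNMT1 to replicated DNA, had no labelled peak but did have a peak over its start. This unlabelled peak, chr19:4909285-4910639, was 24 high (rank 7817) and 1355 bp wide (rank 3322). It covered the canonical start at 4909513, and its apex lay in intron 1, 534 bp downstream of this start and 111 bp upstream of another UHRF1 start. The printed stretch shows 3 GGGCGG, of which the first and second share a base, and 2 CCAAT. The window held 40 CG dinucleotides, more than in 95.7% of all peaks.

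MBD2, the methyl-CG reader, was in the same position. A peak at chr18:51750174-51751337, 23 high and 1164 bp wide, covered the MBD2 start at 51751039, and its apex lay 46 bp upstream of it. The peak carried the symbol of SNORA37, a small nucleolar RNA encoded on the same strand inside MBD2 at 51748654 to 51748782. Its window held 37 CG dinucleotides. With distance in place of the symbol, UHRF1 and MBD2 joined DNMT1, TET3, IDH1 and IDH2, so that 6 of the 10 genes had an apex within 1 kb of a start site, against 39.2% of all protein-coding genes.

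The de novo methyltransferases differed from DNMT1 and from each other. DNMT3A (chr2:25450724-25565459, minus strand) had no peak at the start of its canonical transcript, and the nearest apex lay 20345 bp upstream of it, but 6 unlabelled apexes lay within the gene. From the 5′ end of the gene they had heights of 44 in intron 1, 19 and 42 in intron 2, 33 and 19 in intron 3, and 16 in intron 4. The peaks with heights of 44, 42 and 33 were 1488, 1367 and 1613 bp wide and ranked 1234, 1553 and 3709 by height, so the signal in DNMT3A was concentrated in the first 3 introns of the canonical transcript. Of 3659 protein-coding genes of 100 kb or more, 60.8% had no apex over the gene, and 2.54% had at least as many as DNMT3A. The peak with a height of 44 held 1 receptor word (GGTTCA, 11 bases from the apex), and the one with a height of 42 held the receptor word GGGTCA beside the ETS, GC box and AP-1 words. Their windows had 6 and 5 CG dinucleotides, near the median of 5 in unlabelled peaks (quartiles 3 and 9), against 34 at DNMT1.

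DNMT3B (chr20:31350191-31397165) had no apex over the gene. The nearest peak, with the symbol of MAPRE1, a microtubule-binding protein, began 10236 bp from the gene and had a height of 26. A gap of this size or more separated 46.5% of the 20090 protein-coding genes on the chromosomes of the list from their nearest peak.

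**Figure D2:**
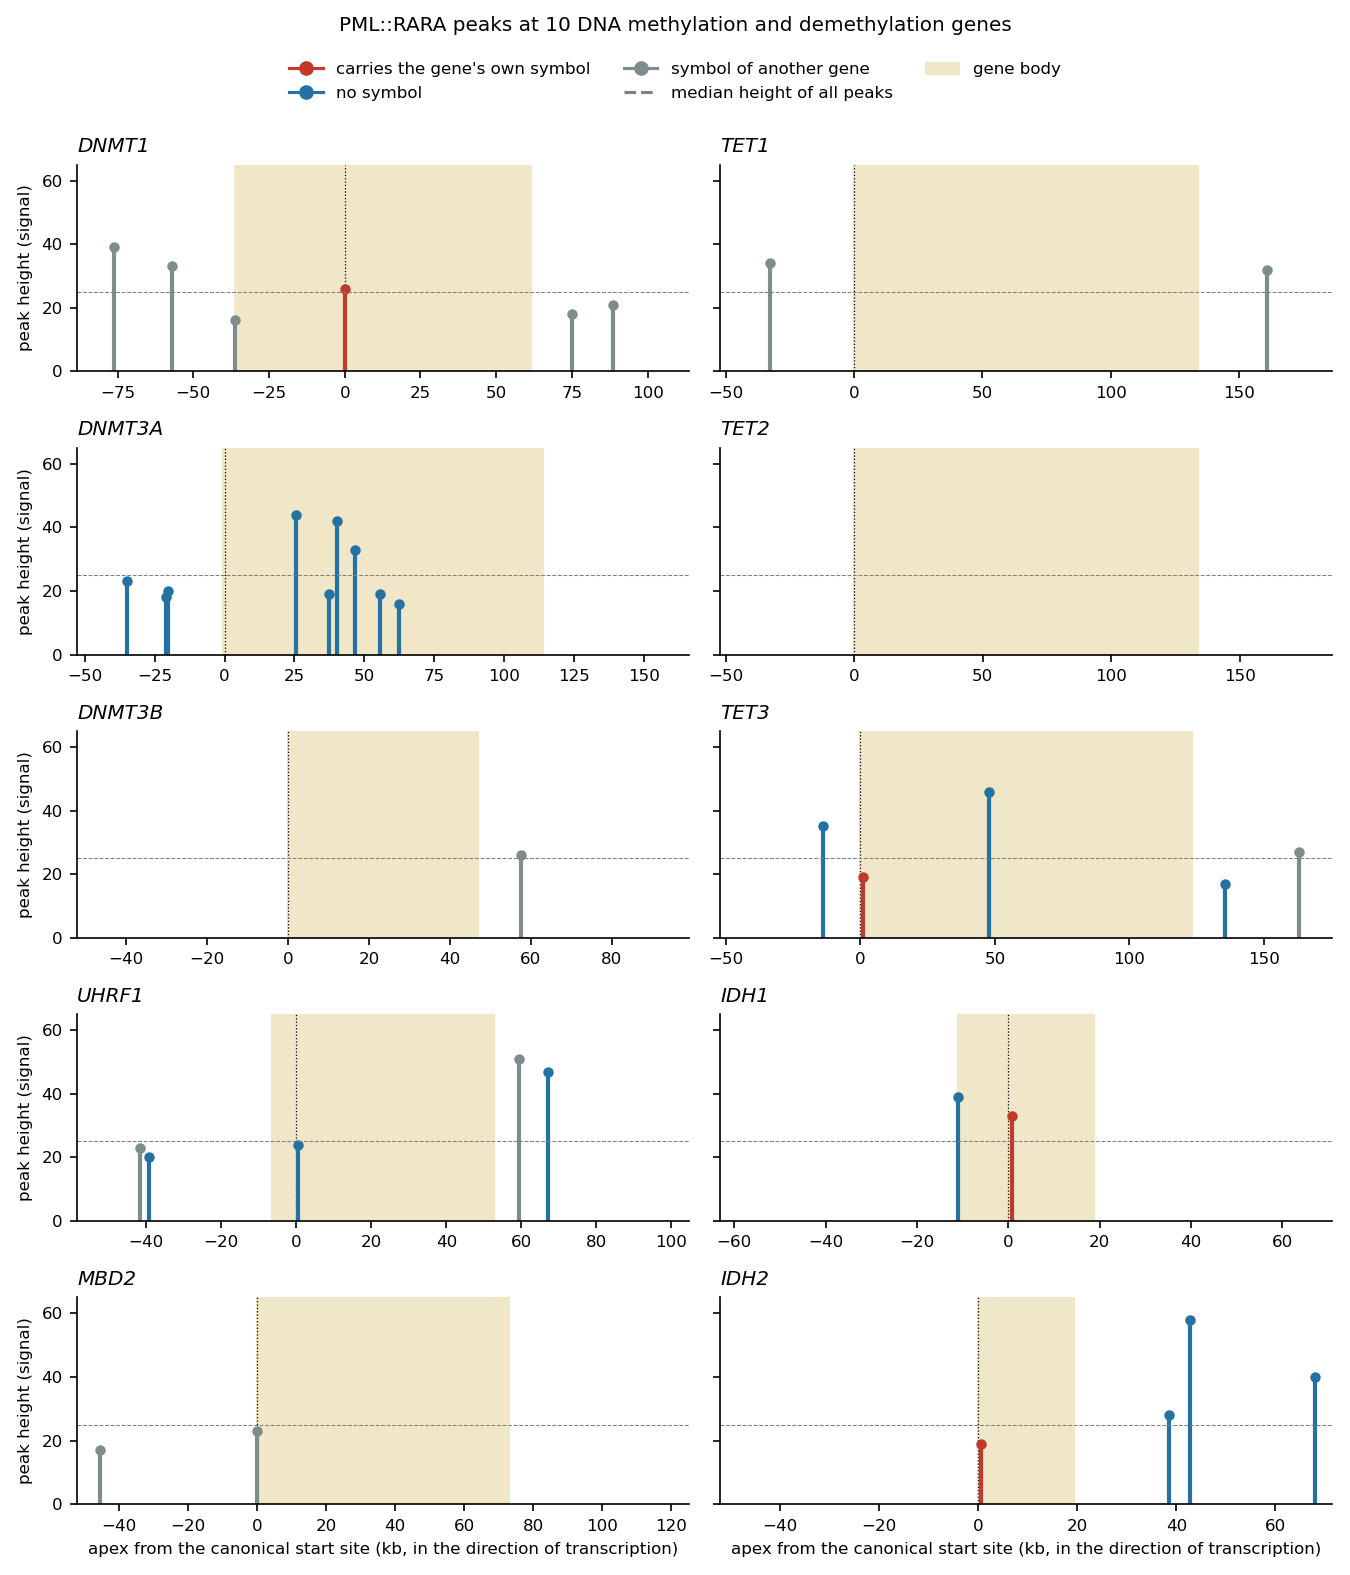
Peaks at the loci of the 10 genes, with the apex position from the canonical start in the direction of transcription (kb) on the horizontal axis and peak height (signal) on the vertical axis. Shading is the gene, and colours mark the gene's own symbol (red), no symbol (blue) or another gene's symbol (grey). DNMT3A has 6 unlabelled peaks within the gene with heights from 16 to 44, whereas DNMT3B, TET1 and TET2 have no apex over the gene.

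Of the 3 TET dioxygenases, TET3 alone had a labelled peak. Its peak, chr2:74212466-74213829, was 19 high (rank 11488, shared by the 913 peaks of this height) and 1364 bp wide (rank 3280). The apex lay in intron 1, 924 bp downstream of the canonical start at 74212037 and 692 bp upstream of another TET3 start, and the peak did not cover the canonical start. With 8 CG dinucleotides in the window, against a median of 25 in labelled peaks (quartiles 17 and 32), it was the poorest in CG of the 4 labelled peaks. The printed sequence holds 1 searched word, the E box CACGTG.

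The higher TET3 peaks lay away from its promoter. One, chr2:74197610-74198476, 35 high (rank 3088) and 867 bp wide (rank 7300), had its apex 13710 bp upstream of the TET3 start in intron 1 of the lncRNA DGUOK-AS1. Its sequence is the only one of the 9 with 3 or more receptor words, as in 3.35% of all and 4.5% of unlabelled windows. On the minus strand it reads AGGTCA, then AGGTCA after 4 bases, then AGTTCA with no base between, and the leftmost plus-strand bases of these words lie 10, 0 and -6 bases from the apex. A pair of receptor words in the same orientation, 0 to 10 bases apart, was present in 1 of the 9 windows and in 1.56% of the windows of all peaks, 1.98% of the unlabelled and 1.09% of the labelled ones. The window held 3 CG dinucleotides. The other, chr2:74259405-74260160, 46 high (rank 989) and 756 bp wide (rank 8565), lay in intron 3 of TET3, 47748 bp downstream of the canonical start, and held AGGTCA, 97 bases from the apex, and TGTGGT. Signal per base was 13.23 and 16.55 in these peaks, whose widths were near the list median of 829.5 bp, and 6.35 in the labelled TET3 peak. The labelled peak was thus lower and broader than its neighbours.

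TET1, 134.2 kb long, and TET2, 133.9 kb long, had no apex over the gene, like 60.8% of protein-coding genes of 100 kb or more. The peaks on either side of TET1 carried the symbols of SLC25A16, a mitochondrial carrier, and CCAR1, a regulator of the cell cycle and apoptosis, with heights of 34 and 32. The nearer lay 26439 bp from the gene, a gap reached or exceeded by 39.2% of protein-coding genes. TET2 stood much further from any peak. The nearest, at UBE2D3 (chr4:103789700-103790563, height 21), lay 2276469 bp away, and the nearest on the other side, at PAPSS1 (chr4:108640959-108641935, height 23), 2.44 Mb away. The median gap over protein-coding genes was 5016 bp, and 1.03% of them (207 of 20090) had a gap at least as large as that of TET2. The peak-free stretch of 4.85 Mb also held CXXC4, a TET2 partner, among 16 protein-coding genes. Chromosome 4 has 415 peaks and 7 peak-free stretches at least as long.

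IDH1, the cytosolic isocitrate dehydrogenase, had the strongest labelled peak of the 10 genes. It covered chr2:209118688-209120347 with a height of 33 (rank 3709), a width of 1660 bp (rank 1863) and a total signal of 25331 (rank 852). The peak covered the canonical start at 209119795, and its apex lay 832 bp downstream in intron 1, 83 bp downstream of the start of another IDH1 transcript. Its window held 16 CG dinucleotides, AGGTCA 111 bases from the apex, 2 GGGCGG and 1 CCAAT. The unlabelled neighbour, chr2:209130553-209131641, was higher at 39 (rank 2104) and 1089 bp wide (rank 5186). Its apex lay 29 bp downstream of the most distal IDH1 start (209130798) and 210 bp upstream of the start of PIKFYVE (209130979, plus strand), a lipid kinase gene whose symbol is not in the list. This neighbour was thus a start-site peak by position without a symbol, and its window held 20 CG dinucleotides with AGTTCA and GGGTCA 134 and 17 bases from the apex.

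IDH2, the mitochondrial isocitrate dehydrogenase, had a peak at chr15:90644347-90646234, the widest of the 4 at 1888 bp (rank 1284) with a height of 19 (rank 11488). It covered the start at 90645700 and had its apex 675 bp downstream, in intron 1. The total signal of 15965, rank 2621, placed it above 83.0% of all peaks although its height was above only 19.5% of them. The printed window shows 1 GGAAGT and 2 GGGCGG and held 21 CG dinucleotides. Both unlabelled neighbours lay on the far side of the gene's 3′ end, in intron 1 of ZNF710, a zinc finger gene. The first, chr15:90602221-90603472, had a height of 58 (rank 196), the highest of the 9, with a width of 1252 bp (rank 3961). The second, chr15:90606284-90607660, was 28 high (rank 5666) and 1377 bp wide (rank 3214). Between 50 and 100 kb from the labelled peaks, 6 more unlabelled peaks were found, all of them at IDH2, including 1 in intron 1 of ZNF710 that reached 40 and spanned 1966 bp.

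In position relative to the canonical start, TET3, IDH1 and IDH2 differed from DNMT1. Their apexes lay 924, 832 and 675 bp downstream of the canonical start, in intron 1, whereas 10.0% of the 6605 labelled peaks of protein-coding genes had an apex at least as far downstream as that of IDH2, and the median apex lay 102 bp upstream (-102). This distance was set by the IDH2 value and is given as a description. Of these labelled peaks, 82.0% covered the canonical start, as did those of DNMT1, IDH1 and IDH2. The contrast depends on the start used. From the nearest annotated start of the same gene, the IDH1 apex lay 83 bp downstream and the TET3 apex 692 bp upstream.

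In sequence words, the labelled peaks and their unlabelled neighbours differed in the same direction as labelled and unlabelled peaks of the whole list. The GC box GGGCGG was found at DNMT1, IDH1 and IDH2, and in none of the 5 unlabelled neighbours. In the list as a whole it was present in 70.9% of labelled and 22.2% of unlabelled windows. At least 1 receptor word was found in 1 of the 4 labelled peaks, that of IDH1, and in 4 of the 5 neighbours, against 37.2% of labelled and 54.4% of unlabelled windows. TGTGGT was found at both TET3 neighbours and at 35.1% of unlabelled windows, and TGANTCA at 1 IDH2 neighbour and at 23.9%. These shares rest on 9 windows, and a word in a window is not evidence that a factor was bound there.

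**Figure D3:**
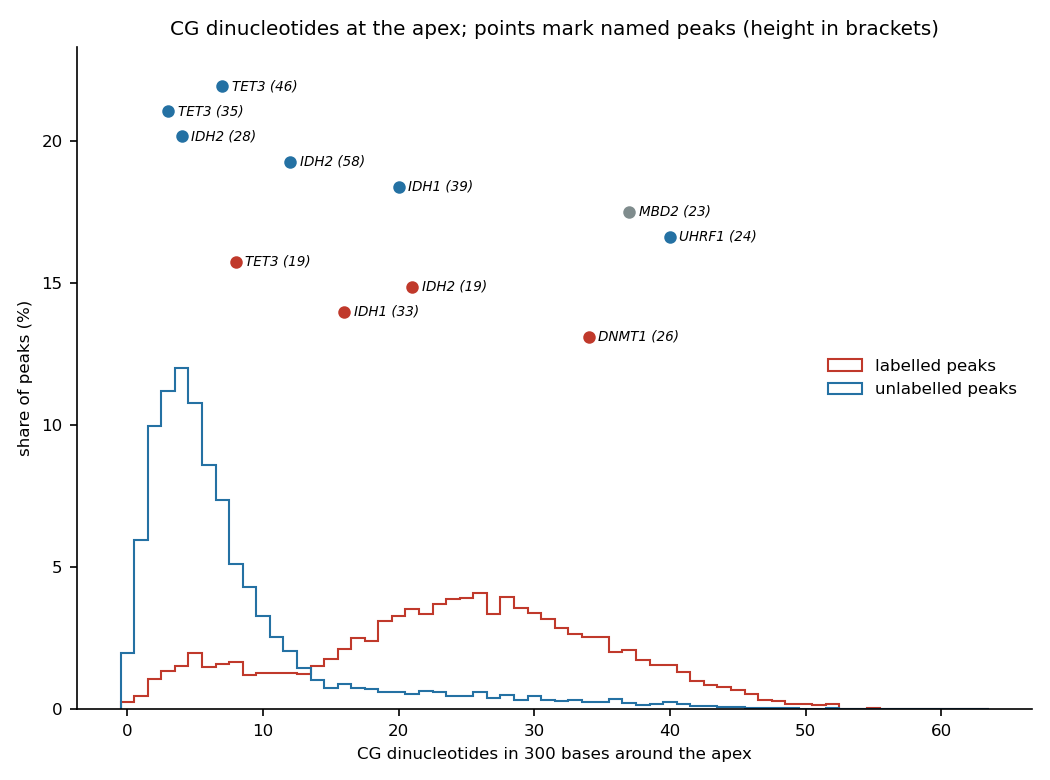
Share of labelled (red line) and unlabelled (blue line) peaks, in percent, by the number of CG dinucleotides in the 300 bases around the apex, with the named peaks as points at their CG count, set at arbitrary heights (red, labelled with the gene; blue, unlabelled; grey, symbol of another gene; peak height in brackets). DNMT1, UHRF1 and MBD2 lie at 34 to 40, above the labelled median of 25, and the TET3 and ZNF710-intron peaks at 3 to 12. The unlabelled median is 5.

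A wider list of the same pathway was described over 33 genes. Of these, 19 (57.6%) had a peak with their own symbol, against the 29.9% of all protein-coding genes given above. Their median height was 29, in a range from 16 to 50, and their median width was 1014 bp. The list was put together with earlier results of these data known, so the share is a description. The counts by role below, over at most 10 genes each, compare with the same 29.9%. Peaks within 1 kb of a start under any symbol or none compare with 39.2%.

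Genes grouped as readers of methylated DNA or as members of the MBD family had a labelled peak in 4 of 6 cases. MBD4, which is both a reader and a thymine glycosylase, reached 44 and spanned 1376 bp, and MBD3, a subunit of the NuRD repressor complex, reached 27 and spanned 2592 bp. MBD1 had a height of 32 and ZBTB4 of 36. At ZBTB4 an apex lay 287 bp from a start, but the nearest apex to the canonical start was 4345 bp away. ZBTB33 had an unlabelled peak 26 bp from a start with a height of 17, and ZBTB38 had no apex within 3 kb of a start.

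Base excision and active demethylation genes had a labelled peak in 5 of 10 cases. GADD45A, a stress-induced gene, had the highest peak of the wider list at 50, with a width of 2128 bp. Its relative GADD45B had a height of 36 and, at 5231 bp, a peak wider than 99.9% of the list. UNG (21), SMUG1 (18) and XRCC1 (28) were lower. TDG, the glycosylase that excises the products of TET enzymes, had no row, but a peak with the symbol of C12orf73 and a height of 38 had its apex 8 bp from a TDG start. In the same way, APEX1, the abasic site endonuclease, had a peak with the symbol of OSGEP and a height of 26, 67 bp from its start. NEIL1 had no apex within 1 kb of a start, but an unlabelled peak with a height of 27 had its apex 1238 bp from one. NEIL2 and GADD45G had no apex within 3 kb of a start.

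Genes of methylation and its maintenance had a labelled peak in 3 of 6 cases. UHRF2, the relative of UHRF1, reached 38 and spanned 1523 bp, whereas USP7 was near the bottom of the list at 16 and DMAP1 had a height of 20. DNMT3L, HELLS and CDCA7 had none, and the nearest peak to HELLS, a chromatin remodeller needed for methylation, lay 947322 bp away. A gap at least this large was found for 3.87% of protein-coding genes. Of the partners of TET enzymes, OGT had a height of 31, and CXXC4 and CXXC5 had no labelled peak. An unlabelled peak with a height of 25 had its apex 1744 bp from a CXXC5 start.

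Isocitrate, 2-oxoglutarate and 2-hydroxyglutarate enzymes had a labelled peak in 3 of 4 cases. The 3 subunits of the NAD-dependent isocitrate dehydrogenase were all labelled, IDH3A with a height of 29, IDH3G with 29 and IDH3B with 17. D2HGDH, which clears 2-hydroxyglutarate, had no labelled peak. In the cycle of S-adenosylmethionine, the methyl donor, 3 of 4 genes were labelled. MAT2B (34), AHCY (26) and MTR (27) carried their own symbol, and MAT2A had a peak 322 bp from a start that was 42 high and 2677 bp wide and carried the symbol of PARTICL, an lncRNA beside it.

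**Figure D4:**
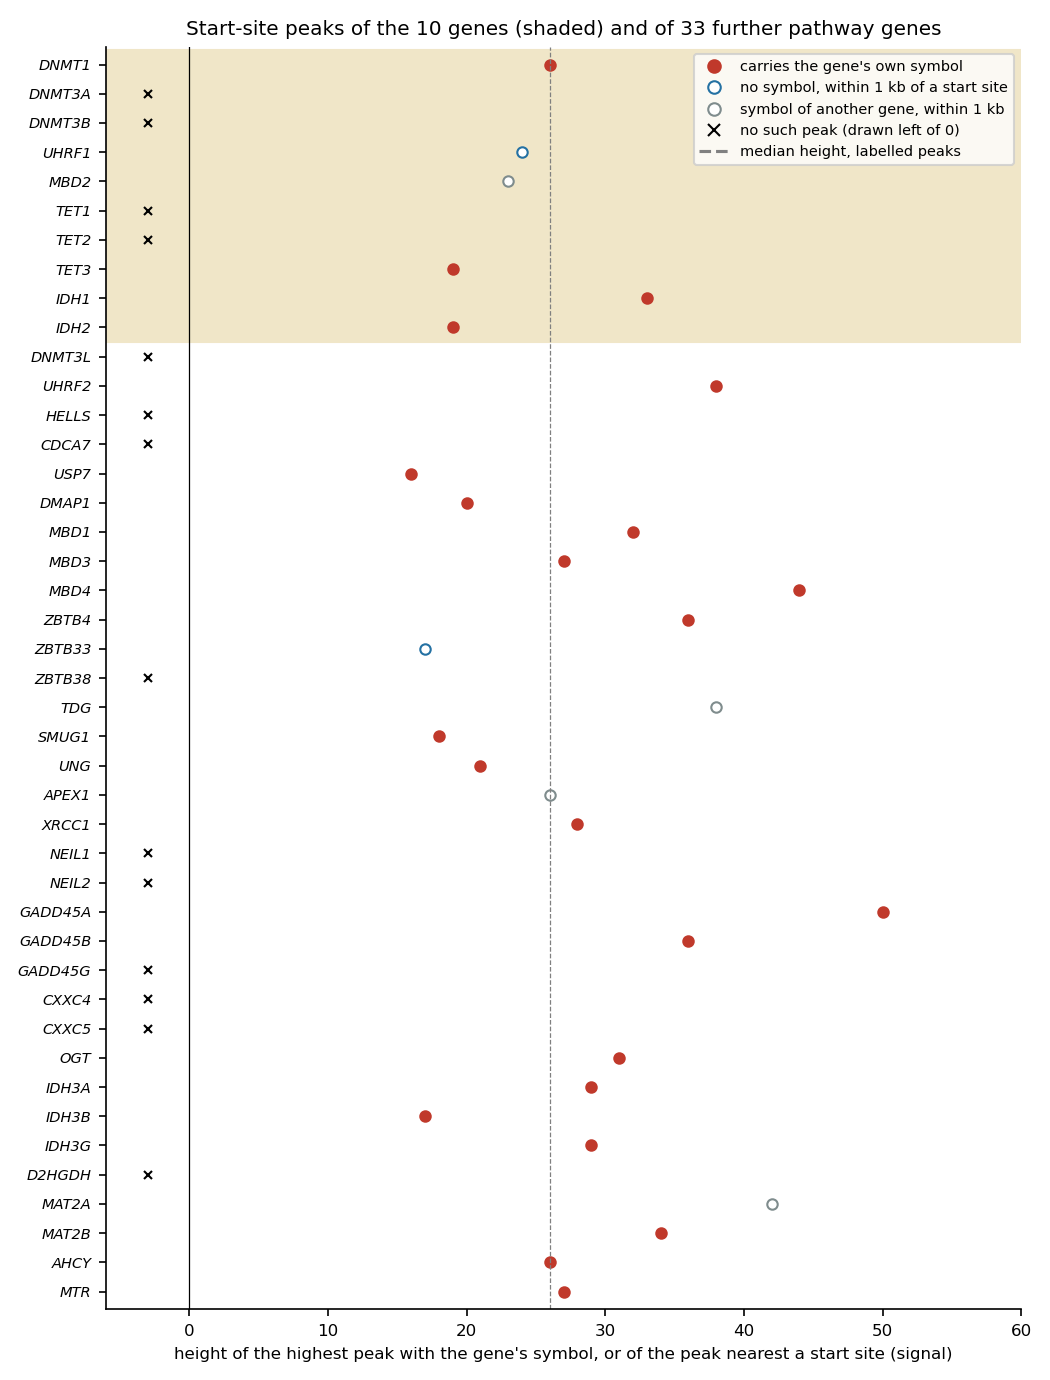
Height (signal, horizontal axis) of the highest peak with the gene's symbol (filled points), or otherwise of the peak with an apex within 1 kb of a start (open points), for the 10 genes (shaded) and the 33 further genes of the pathway. The dashed line is the labelled median of 26, and crosses left of 0 mark genes with no such peak. The 4 filled points of the 10 genes lie between 19 and 33, and those of the wider list between 16 and 50.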

How the data were processed

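Cut&Run reads of U937-PR9 cells were trimmed by the authors with Trimmomatic, aligned to hg19 with Bowtie2 and cleared of PCR duplicates (Samtools) and blacklisted reads (Bedtools). Peaks were called with SEACR against the paired control (norm union) and kept at an IDR under 0.05 over 2 replicates. The submitters' processing notes name the same trimmer, aligner, caller and build, without versions. The authors deposited, for each peak, a total signal and a SEACR score, by its values the largest signal in the peak and called height here. The column of total signal is named otherwise, and this content was inferred from the values, since total signal was below height times width in all 15412 peaks. Any normalization of the signal, and whether it is of 1 replicate, a mean or pooled reads, is not given in the sources used here. Depth per library is therefore unknown. The gene symbols are the authors'. Their methods state that genomic features came from the UCSC hg19 known genes and were assigned by overlap with the apex, but the rule that gave or withheld a symbol is not given in the sources used here, and some peaks at annotated starts carry none. The list holds no expression values, so the cell line was not checked against marker genes.

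Positions were taken from GENCODE release 44 mapped to GRCh37, the build of hg19. The apex is the midpoint of the interval of largest signal (its start in 34 peaks that lack the end). Ranks run from 1 (highest), with ties sharing the best rank, and percentiles are the share of peaks below a value. Words were searched in 300 bases around the apex. Each alternative changed the gene assignment, a distance, a threshold, the measure of strength or the reference set. The 10 genes, all their labelled peaks and unlabelled neighbours, the nearest peaks of genes without a row, and 33 genes of the wider list are named by a fixed rule. The wider list was fixed with 3 further genes, which are not reported here. Members and lists were chosen with earlier results of these data known. No test across peaks was run. Scripts were tested on simulated peaks and ran in Python 3.11.15 with numpy 2.4.6, pandas 2.3.3, scipy 1.17.1 and matplotlib 3.10.9.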

Additional observations from a re-analysis of the deposited data

How the results depend on the processing

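With peaks below the median height left out, the genes with a labelled peak fell from 4 to 2, DNMT1 and IDH1. With distance to a start in place of the symbol they were 6, at 1 kb, at 3 kb and for canonical starts alone, an alternative chosen after seeing the data, and with peaks below the median width left out they were 4. The wider list gave 14 to 25 genes in place of 19. Within 1 kb of a start it gave 23, a distance met by 39.2% of all protein-coding genes. For the other alternatives no share of all genes is given here, so the counts of both lists are descriptions only. Unlabelled neighbours were 2 within 25 kb, 5 within 50 kb and 11 within 100 kb. Merging peaks under 1 kb apart changed neither the 4 labelled nor the 5 unlabelled peaks. The median height percentile of the 4 labelled peaks was 36.3 by height, 70.4 by total signal and 45.2 by mean signal per base. It was 31.9 among labelled peaks and 29.3 within deciles of width. The low median by height came from TET3 and IDH2, and the median by total signal, in which width counts, was not low. The median width percentile of the 4 labelled peaks was 83.3, and 72.97 among labelled peaks. The neighbours' median height percentile was 85.0, with 74.4 by total signal and 86.98 among unlabelled peaks. No paired analysis was possible because replicates share 1 value per peak, and leaving out a replicate could not be run either.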
